A study of Mus musculus with 6 samples.

Results

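*Irf1* lies in the cytokine gene cluster of mouse chromosome 11, and the 10 genes described here are its neighbours *Kif3a*, *Slc22a5*, *Slc22a4*, *Pdlim4*, *P4ha2*, *Acsl6*, *Fnip1*, *Rapgef6*, *Lyrm7* and *Hint1*. They were chosen by symbol for their place around *Irf1*, and all 10 were found among the 26264 genes of the deposited table. Bulk RNA-seq was performed on sorted hematopoietic stem cells (HSCs) to compare gene expression with and without the transcription factor IRF1. There were 3 libraries per genotype, each from the bone marrow of a different mouse, and their descriptions number them 2, 3 and 4 in both groups. The titles number the same libraries in the same order but start lower, and the numbers of the descriptions are used here. The WT group was C57Bl/6 and the *Irf1-/-* group was the whole-body knockout B6.129S2-Irf1^tm1Mak/J. Mice of both groups were untreated females of 8 weeks. The strain name records a targeted allele of 129S2 origin on a B6 background, and sequence next to a targeted gene can stay with it through crosses. The sequence around *Irf1* in these mice was not analysed here, so an effect of IRF1 loss and an effect of linked sequence cannot be told apart for genes near *Irf1* on chromosome 11.

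The cluster holds genes for the cytokines IL-3, GM-CSF, IL-4, IL-5 and IL-13 among genes with unrelated housekeeping, transport and signaling roles. IRF1 is an interferon-inducible transcription factor that binds repeated GAAA motifs in promoters. Genes that sit next to each other can share regulatory elements, as the IL-4, IL-5 and IL-13 genes of this cluster do in T cells.

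Reads on genes numbered 43138521, 57281017 and 45129929 in *Irf1-/-* replicates 2, 3 and 4, and 59658080, 45332573 and 43267486 in WT replicates 2, 3 and 4. Values below are normalized counts, that is, reads per gene divided by 1 size factor per library, and they are given in the order of replicates 2, 3 and 4. All 10 HSC marker genes listed were measured, and 1 of them, *Fgd5*, was called higher in *Irf1-/-* HSCs by the test described below (log2 fold change 0.83, limma, adjusted *P* = 9.13e-05; 0.0511 without an intensity trend). At an unadjusted *P* under 0.05 there were 6 of the 10, compared with 16.5% of all tested genes (2863 of 17404): *Fgd5*, *Procr*, *Slamf1*, *Hlf* and *Mecom* with higher and *Ly6a* with lower means in *Irf1-/-* HSCs. *Ly6a* encodes Sca-1, on which the cells were sorted, and had 4974, 6047 and 5376 normalized counts in *Irf1-/-* HSCs and 6908, 7439 and 7692 in WT HSCs. The groups did not overlap, but the log2 fold change of −0.43 (limma, adjusted *P* = 0.0245) was short of the fold threshold, as was that of *Procr* (0.52, adjusted *P* = 0.0112). These adjusted *P* values were above 0.05 in 5 of 16 alternatives for *Ly6a*, among them those without *Irf1-/-* replicates 2 (0.115) or 4 (0.111) or WT replicate 3 (0.0772), and in 2 of 16 for *Procr*. Without WT replicate 2, *Procr* was called higher (log2 fold change 0.58, adjusted *P* = 0.0156). *Kit*, the stem cell factor receptor, had 77902, 88715 and 79909 normalized counts in *Irf1-/-* HSCs and 83185, 84044 and 80517 in WT HSCs, so both groups carried it at a high level. The first principal component over tested genes (32.4% of variance) did not separate the genotypes: it placed *Irf1-/-* replicates 2 and 4 with WT replicate 4, and the other 3 libraries on the opposite side. WT replicate 4 also held more of the neutrophil genes *S100a8* (1033 normalized counts), *S100a9* (1246) and *Ly6g* (46.3), whereas the other 5 libraries had at most 110.0, 131 and 1.07. The granulocyte and monocyte markers *Itgam* (1480) and *Csf1r* (302) did not stand out in WT replicate 4, where they lay within the range of the other 5 libraries. The 5 granulocyte and monocyte markers summed to 1906, 1678 and 2593 normalized counts in *Irf1-/-* HSCs and 936, 2098 and 4107 in WT HSCs. *Itgam* was the most abundant of them in each library, and *Ly6g*, which defines neutrophils, was listed at 0 in 4 libraries. The tested markers of B cells (4), T cells (2), erythroid cells (2) and granulocytes and monocytes (4) had 0 calls by limma or edgeR and 0 at an unadjusted *P* under 0.05. DESeq2 gave an adjusted *P* to 5 of these 12 and called 0, and 4 globin genes were listed at 0 in all 6 libraries. For the globin genes, that does not show whether the RNA was absent or its reads were not counted. The HSC gate left out cells stained for lineage markers, among them CD11b (the product of *Itgam*), Gr-1 (which includes that of *Ly6g*) and markers of B, T and erythroid cells. The part of such cells in the results was not tested. *Irf1*, *Lyrm7*, *Acsl6*, *P4ha2* and *Hint1* had their highest value in WT replicate 4, and their differences are given with and without it. In bulk libraries, fewer cells of a type and less RNA per cell cannot be told apart.

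The targeted gene was still counted. *Irf1* had 9267, 9524 and 9287 normalized counts in *Irf1-/-* HSCs and 10122, 11119.6 and 12058 in WT HSCs. All 3 *Irf1-/-* libraries lay below all 3 WT libraries, but by little, with a mean 84.3% of the WT mean. The difference on the log2(normalized count + 1) scale was −0.24 (SE 0.088, 95% interval −0.43 to −0.054) with an adjusted *P* of 0.170 in limma, and −0.18 without WT replicate 4. The exact two-sided permutation *P* was 0.1, the smallest that 3 against 3 libraries allow. A count over the whole gene does not show which exons the reads came from, so it does not check the deletion, and the groups are named by their labels throughout.

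Among the 10 neighbours, 1 gene, *Lyrm7*, was called lower in *Irf1-/-* HSCs and 0 were called higher, whereas 0.954% of the 17404 tested genes were called lower (166) and 0.96% higher (167). Genes were tested with limma if their mean normalized count was at least 10, and were called at an adjusted *P* under 0.05 with an absolute log2 fold change above 0.58. All 10 neighbours passed that filter, *Acsl6* only through its WT libraries. At an unadjusted *P* under 0.05, *Lyrm7* was again the 1 neighbour found of 10 and 0 were higher, compared with 16.5% of all tested genes at that *P*. edgeR and DESeq2 on recovered reads likewise called *Lyrm7* lower and 0 neighbours higher (DESeq2 gave an adjusted *P* to 8 of the 10). In all, edgeR called 0.931% of the 17404 tested genes lower, and DESeq2 1.6% of the 13094 to which it gave an adjusted *P*. The median log2 fold change was −0.074 over the 10 neighbours and −0.0028 over all tested genes. It was −0.020 over the 9 neighbours other than *Acsl6*, a value added after seeing the data. The libraries of the genotypes did not overlap for 2 of the 10, *Lyrm7* and *Kif3a*, compared with 19.9% of all tested genes.

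**Figure D1:**
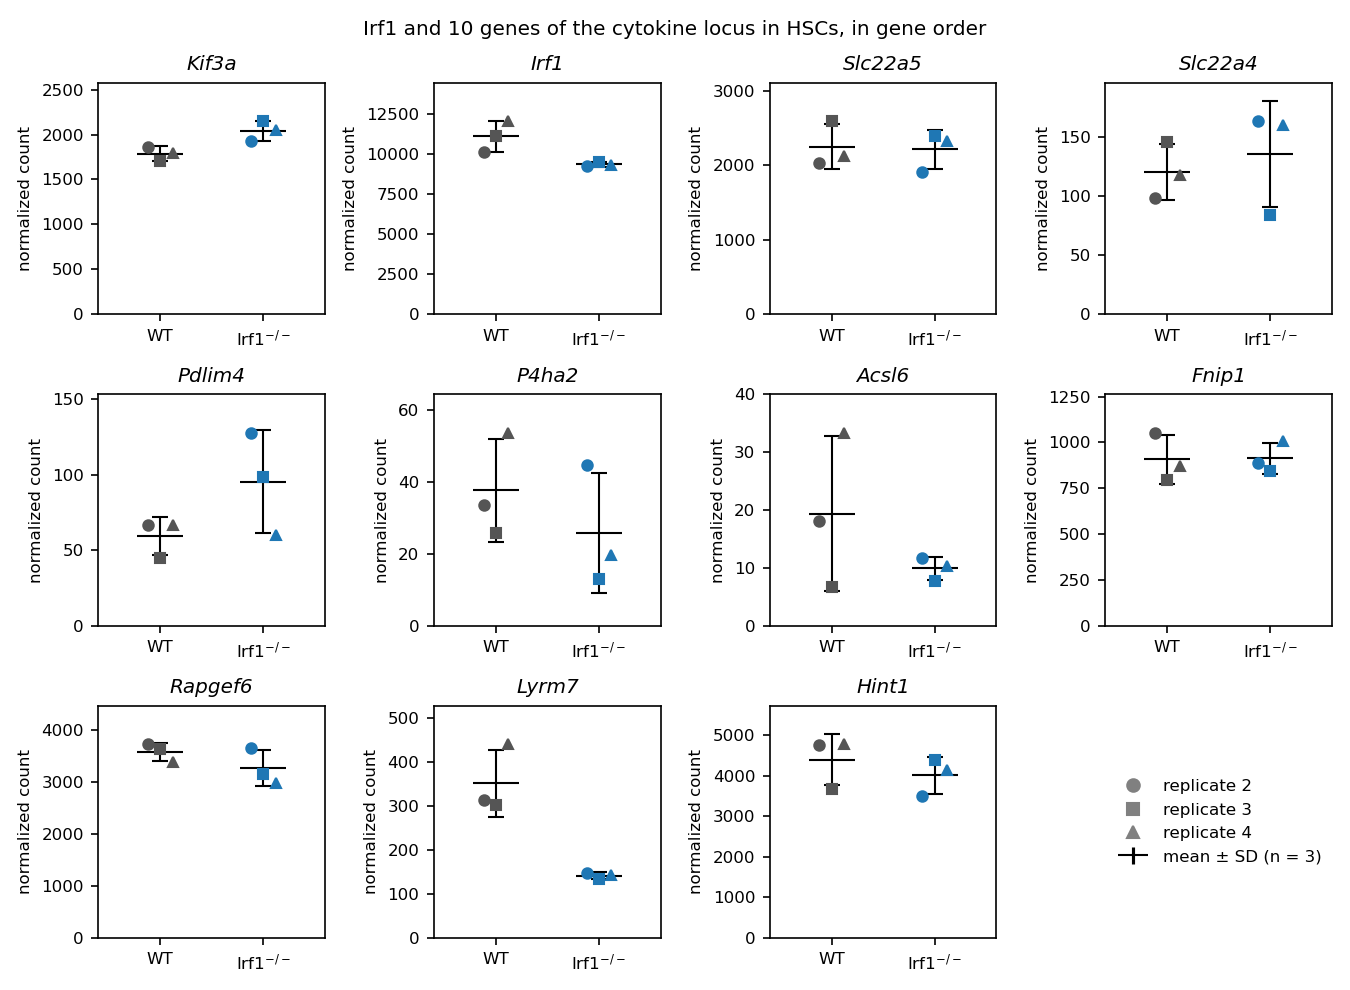
Normalized counts of *Irf1* and its 10 neighbours in each of 3 WT (grey) and 3 *Irf1-/-* (blue) HSC libraries, 1 panel per gene in gene order, with each vertical axis starting at 0. Symbols mark replicates 2, 3 and 4, and black bars give the mean ± SD; the *Lyrm7* libraries form separate groups, at most 146 in *Irf1-/-* and at least 301 in WT HSCs.

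*Lyrm7* encodes a mitochondrial assembly factor that holds the Rieske iron-sulfur protein, Uqcrfs1, before it joins respiratory complex III. It had 146, 132 and 143 normalized counts in *Irf1-/-* HSCs and 314, 301 and 439 in WT HSCs. The *Irf1-/-* libraries were close to each other and all lay below the lowest WT library, and WT replicate 4 was the highest. The mean was 141 ± 7.32 (SD, n = 3) in *Irf1-/-* and 351 ± 76.3 (SD, n = 3) in WT HSCs, so that *Irf1-/-* HSCs held 40.0% of the WT level. *Lyrm7* fell by 1.30 on the log2 scale (SE 0.23, 95% interval −1.79 to −0.80; limma, adjusted *P* = 0.00713). Without WT replicate 4 it fell by 1.12 with an adjusted *P* of 0.0201. The call was lost when the filter on low values was dropped (adjusted *P* = 0.104) and when limma used no intensity trend (adjusted *P* = 0.0838), at the same fold change. Over all 16 alternatives the adjusted *P* lay between 1.26e-06 and 0.104.

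Of 7 tested genes of complex III assembly, *Lyrm7* itself was the 1 called, by limma, edgeR and DESeq2 alike, and the median log2 fold change was −0.062. Over all genes with an adjusted *P*, limma called 1.91%, edgeR 1.88% and DESeq2 3.85%. *Lyrm7* was also the 1 of the 7 with an unadjusted *P* under 0.05 in limma, compared with 16.5% of all tested genes. *Uqcrfs1*, the client of Lyrm7, had 4602, 4762 and 4466 normalized counts in *Irf1-/-* HSCs and 5045, 5239 and 4943 in WT HSCs. Its *Irf1-/-* libraries all lay below the WT libraries, whereas the genotypes did not overlap, in either direction, for 19.9% of all tested genes. The difference of *Uqcrfs1* was small and was not called (log2 fold change −0.14, limma, adjusted *P* = 0.469). *Bcs1l*, the translocase that inserts the Rieske protein, differed by −0.030 on the log2 scale and *Ttc19* by 0.046, and the libraries of the genotypes overlapped for both. *Lyrm7os*, the noncoding gene beside *Lyrm7*, held 10.7, 2.59 and 8.30 normalized counts in *Irf1-/-* and 4.94, 9.02 and 17.2 in WT HSCs, too few to be tested. The strand setting of the counting is not given in the sources used here.

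*Slc22a5* and *Slc22a4* encode the organic cation transporters OCTN2, which imports carnitine, and OCTN1, which imports ergothioneine. *Slc22a5* had 1914, 2397 and 2329.5 normalized counts in *Irf1-/-* HSCs and 2028, 2591 and 2119 in WT HSCs. The groups overlapped almost fully, and the 95% interval of the log2 fold change was −0.28 to 0.24. *Slc22a4* had 163, 83.8 and 159.9 normalized counts in *Irf1-/-* HSCs and 97.9, 145 and 117 in WT HSCs. *Irf1-/-* replicate 3 was the lowest of the 6 and the other 2 *Irf1-/-* libraries were the highest, so the interval was wide (−0.57 to 0.83). *Slc22a4* overlaps *Gm30927* in the gene table used for order, and reads in the overlap could be counted for neither or either. The sign of the difference changed for both transporters under other settings, so no direction is given.

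Carnitine carries long-chain fatty acids into mitochondria. Of 9 tested genes for the carnitine shuttle and related transporters, 0 were called by limma, edgeR or DESeq2, and the median log2 fold change was 0.15. At an unadjusted *P* under 0.05 there were 2 of the 9, compared with 16.5% of all tested genes. These 2 were *Cpt1a*, the entry step of the shuttle, and *Crat*, carnitine acetyltransferase. *Cpt1a* had 17581, 18688 and 18981 normalized counts in *Irf1-/-* HSCs and 12002, 15405 and 14384 in WT HSCs. All *Irf1-/-* libraries lay above all WT libraries, and its adjusted *P* of 0.0384 in limma passed the threshold, but its log2 fold change of 0.41 (SE 0.099) did not reach 0.58. That *P* was above 0.05 in 7 of 16 alternatives (range over all 16, 0.00299 to 0.316), among them the fits without *Irf1-/-* replicate 2 (0.0875), 3 (0.0824) or 4 (0.178) and without WT replicate 2 (0.220).

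*Acsl6* encodes a long-chain acyl-CoA synthetase known mainly from brain and red cell precursors, and it was barely expressed. It had 11.7, 7.78 and 10.4 normalized counts in *Irf1-/-* HSCs and 18.1, 6.76 and 33.3 in WT HSCs. WT replicate 4 was the highest and WT replicate 3 the lowest of the 6, so the WT libraries spanned all *Irf1-/-* libraries. *Ermap*, an erythroid marker, had 134, 207 and 34.3 normalized counts in *Irf1-/-* and 499.5, 83.4 and 342 in WT HSCs, and like *Acsl6* it was higher in WT replicates 2 and 4 than in the other 4 libraries (log2 fold change −1.29, limma, adjusted *P* = 0.340). The globin genes of the list were at 0, which does not show whether their RNA was absent or their reads were not counted. The part of erythroid cells in the *Acsl6* values was not tested. The log2 fold change was −0.67 (95% interval −2.26 to 0.92), and leaving out WT replicate 4 gave −0.17, whereas leaving out WT replicate 3 gave −1.24. Of the 5 acyl-CoA synthetase genes tested, 0 were called by limma or edgeR, and 0 of the 4 with an adjusted *P* by DESeq2. At an unadjusted *P* under 0.05 there was 1, *Acsl5* (log2 fold change −0.26, limma, adjusted *P* = 0.192), compared with 16.5% of all tested genes. The median over the 5 was −0.23.

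*P4ha2*, a catalytic subunit of the prolyl hydroxylase that stabilises collagen, and *Pdlim4*, a PDZ and LIM domain protein of the actin cytoskeleton, were also low. *P4ha2* had 44.8, 13.0 and 19.7 normalized counts in *Irf1-/-* HSCs and 33.7, 25.9 and 53.8 in WT HSCs. *Irf1-/-* replicate 2 lay among the WT libraries and the other 2 lay below them, and the highest value was again WT replicate 4. The log2 fold change of −0.65 had a 95% interval of −1.88 to 0.58, and leaving out WT replicate 4 gave −0.37, *Irf1-/-* replicate 2 −1.13 and *Irf1-/-* replicate 3 −0.27. *Pdlim4* had 128, 98.5 and 60.2 normalized counts in *Irf1-/-* HSCs and 66.7, 45.1 and 66.7 in WT HSCs. Replicates 2 and 3 of the *Irf1-/-* group were above every WT library and replicate 4 was among them, and the log2 fold change of 0.63 (SE 0.38) was not called (limma, adjusted *P* = 0.472). Leaving out *Irf1-/-* replicate 2 gave 0.39, and leaving out *Irf1-/-* replicate 4 gave 0.93. Neither family had a gene called by limma or edgeR, with 0 of 4 collagen prolyl hydroxylase genes (median −0.20) and 0 of 6 PDZ and LIM domain genes (median −0.019). At an unadjusted *P* under 0.05 there were 1 of the 4 and 0 of the 6, compared with 16.5% of all tested genes. DESeq2 called 0 of the 2 and 5 genes of these families to which it gave an adjusted *P*.

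*Fnip1* and *Rapgef6* encode signaling proteins. Fnip1 binds folliculin and AMPK and is needed for B cell development, and Rapgef6 activates the small GTPase Rap. *Fnip1* had 889, 843 and 1007 normalized counts in *Irf1-/-* HSCs and 1053, 796 and 872 in WT HSCs, with WT libraries at both ends of the range and a 95% interval of −0.29 to 0.32. The sign of its difference changed with the scaling. *Rapgef6* had 3667, 3156 and 2991 normalized counts in *Irf1-/-* HSCs and 3729, 3632 and 3387 in WT HSCs. *Irf1-/-* replicate 2 lay among the WT libraries and the other 2 below them (log2 fold change −0.14, 95% interval −0.35 to 0.080; −0.22 if *Irf1-/-* replicate 2 was left out and −0.073 if replicate 4 was). The folliculin genes *Flcn*, *Fnip1* and *Fnip2* gave 0 calls of 3 by limma, edgeR or DESeq2 and 0 at an unadjusted *P* under 0.05 (median 0.016). Of 6 Rap exchange factor genes 0 were called by the same tests, but 3, *Rapgef3*, *Rapgef4* and *Rapgef5*, had an unadjusted *P* under 0.05 with all *Irf1-/-* libraries above all WT libraries, compared with 16.5% of all tested genes at that *P*. *Rapgef3*, a cAMP sensor, had 1026, 1463 and 1362 against 948, 772 and 937 normalized counts (limma, adjusted *P* = 0.0794), and it was called without *Irf1-/-* replicate 2 (adjusted *P* = 0.0416; range over 16 alternatives 0.0111 to 0.359).

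*Kif3a*, the motor subunit of kinesin-2 that builds primary cilia, is the 1 neighbour on the other side of *Irf1*. It had 1923, 2150.0 and 2047 normalized counts in *Irf1-/-* HSCs and 1865, 1704 and 1794 in WT HSCs. All *Irf1-/-* libraries lay above all WT libraries, but replicate 2 of the 2 groups differed by less than the spread within either group. The log2 fold change was 0.19 (SE 0.10, 95% interval −0.028 to 0.41) and was not called (limma, adjusted *P* = 0.395). *Kif3a* overlaps *A430108G06Rik*, which held at most 19.9 normalized counts. Of 5 kinesin-2 genes 0 were called by limma, edgeR or DESeq2 (median 0.19). At an unadjusted *P* under 0.05 there were 2 of the 5, *Kif3c* and *Kif17*, compared with 16.5% of all tested genes. Like *Kif3a*, both had all *Irf1-/-* libraries above all WT libraries, so that 3 of the 5 lay above and 0 below. Over all tested genes, the libraries of the genotypes did not overlap for 19.9%.

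*Hint1*, a purine nucleoside phosphoramidase, had 3504, 4383 and 4149 normalized counts in *Irf1-/-* HSCs and 4756, 3665 and 4773 in WT HSCs. WT replicate 3 lay within the *Irf1-/-* libraries and the other WT libraries above them, and the log2 fold change was −0.13 (95% interval −0.38 to 0.13). It was −0.064 without WT replicate 4, and between −0.25 (without WT replicate 3) and −0.034 (without *Irf1-/-* replicate 2) over the 6 fits with 1 library left out. Of 5 histidine triad genes 0 were called by limma, edgeR or DESeq2 and 0 had an unadjusted *P* under 0.05 (median 0.026).

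Per kilobase of exon in an older annotation (GENCODE vM1), the neighbours spanned a wide range of levels in WT HSCs. *Hint1* was highest at 5043 ± 728 normalized counts per kb (SD, n = 3), above *Irf1* itself at 2792 ± 243. *Slc22a5* (731 ± 98.4), *Kif3a* (305 ± 13.7), *Rapgef6* (274 ± 13.5) and *Fnip1* (127 ± 18.5) followed. *Lyrm7* stood at 85.2 ± 18.5, above *Slc22a4* (47.1 ± 9.35) and *Pdlim4* (23.2 ± 4.87), and *P4ha2* (6.06 ± 2.30) and *Acsl6* (1.96 ± 1.35) were lowest. The WT libraries of genes next to each other in this order did not overlap. In *Irf1-/-* HSCs the means of *Slc22a4* (53.1 normalized counts per kb) and *Pdlim4* (37.3) lay above that of *Lyrm7* (34.1), but the libraries of both overlapped those of *Lyrm7*.

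In gene order, *Lyrm7* is the 13th tested gene from *Irf1*, and the 8 neighbours on either side of *Irf1* that lie nearer to it were not called. The span from *Kif3a* to *Hint1* holds 18 tested genes, 7 of them neither *Irf1* nor among the 10. Of these 7, *Gm12216*, a long noncoding RNA gene and the next tested gene after *Irf1*, was called lower. It had 332, 328 and 405 normalized counts in *Irf1-/-* HSCs and 695, 726 and 833 in WT HSCs. The groups were well separated, and it fell by 1.08 on the log2 scale (SE 0.16; limma, adjusted *P* = 0.00217). The call was lost without the filter (adjusted *P* = 0.0749) and without the intensity trend (adjusted *P* = 0.0697). Within 25 tested genes on each side of *Irf1*, 4 of 50 genes (8%) were called, compared with 1.91% of all tested genes, and 12 of 50 (24%) had libraries that did not overlap, compared with 19.9%. When the 50 genes were counted under the other settings, which was chosen after seeing the data, limma called 0 of them without the filter (11 at an unadjusted *P* under 0.05) and 0 without the intensity trend (10 at that *P*). edgeR called 3 of the 50, compared with 1.88% of all genes it tested, and DESeq2 called 3 of the 40 to which it gave an adjusted *P*, compared with 3.85% of all such genes.

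The other 2 called genes of that window were higher in *Irf1-/-* HSCs and lay beyond *Hint1*. *Gm2a*, the activator protein for ganglioside breakdown in lysosomes, had 12689, 12935 and 12432 normalized counts in *Irf1-/-* HSCs and 9507, 7865 and 8118 in WT HSCs. The groups did not overlap, but its log2 fold change of 0.58 (SE 0.091; limma, adjusted *P* = 0.00283) sat at the threshold, and 8 alternatives lost the call. They included those without the filter (adjusted *P* = 0.117) and without the intensity trend (0.164), edgeR and DESeq2, which gave log2 fold changes just under the threshold, and the fits without *Irf1-/-* replicate 3 (0.57), WT replicate 3 (0.53) or WT replicate 4 (0.55). *Sparc*, a secreted matrix protein, had 390.2, 259 and 305 against 61.7, 134 and 111 normalized counts. All *Irf1-/-* libraries were above the WT libraries (log2 fold change 1.68, SE 0.31; limma, adjusted *P* = 0.00850), but *Sparc* was not called once *Irf1-/-* replicate 2 (adjusted *P* = 0.0608), the filter (0.200) or the intensity trend (0.187) was left out. *Tnip1*, which restrains NF-κB signaling, had an adjusted *P* of 0.0117 in limma at a log2 fold change of 0.45, below the fold threshold, and that *P* was above 0.05 in 4 of 16 alternatives (range 7.26e-05 to 0.164).

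**Figure D2:**
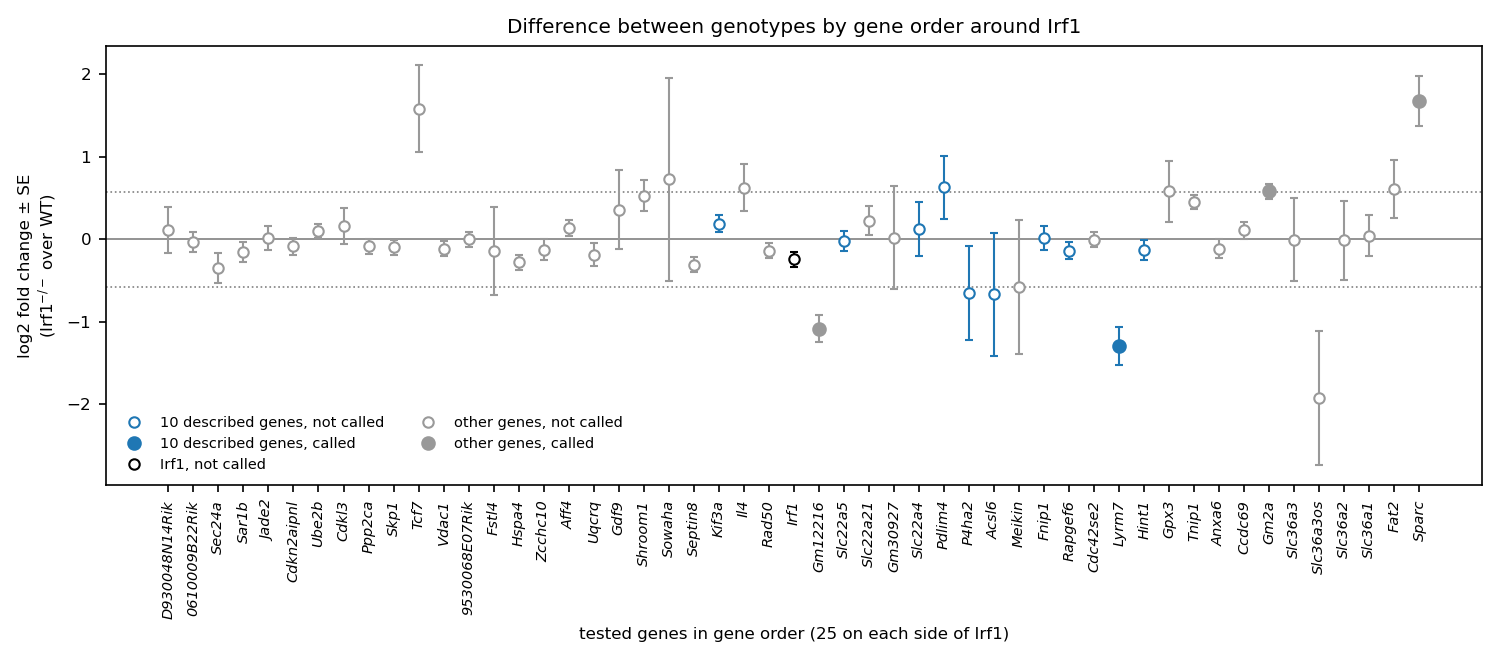
Log2 fold change (*Irf1-/-* over WT HSCs) with SE for *Irf1* and the 25 tested genes on each side, evenly spaced in gene order, with dotted lines at 0.58 and −0.58. Filled points were called: *Gm12216* and *Lyrm7* below 0, *Gm2a* and *Sparc* above 0; blue marks the 10 neighbours and black marks *Irf1*.

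Of 18 other tested genes of the locus fixed as a list, 1 (*Gm2a*) was called higher and 0 lower by limma, 0 by edgeR, 0 of the 16 with an adjusted *P* by DESeq2, and 5 had an unadjusted *P* under 0.05 (median 0.080). Over all tested genes limma called 0.96% higher, and 16.5% had an unadjusted *P* under 0.05. Of the 5 cytokine genes, *Il4* was the 1 with enough reads to test. *Il4* had 369.9, 321 and 437 normalized counts in *Irf1-/-* HSCs and 319, 142 and 311 in WT HSCs. The *Irf1-/-* libraries all lay above the WT libraries, narrowly, and WT replicate 3 was far below the rest (log2 fold change 0.62, limma, adjusted *P* = 0.289; 0.24 without WT replicate 3). *Il3* was listed at 0 in all 6 libraries, and *Csf2*, *Il5* and *Il13* held at most 12.9, 9.68 and 2.08 normalized counts.

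Promoters were read for the genes that fell, since *Irf1* encodes a factor that binds GAAA repeats. The letters GAAA, any 2 bases and GAAA again were searched on both strands from 250 bases before to 50 bases after each RefSeq gene start (GRCm38.p6), and 1131 of 32851 such windows (3.44%) held them. None of the 11 windows of the 9 neighbours with an entry did, and *Hint1* has no entry. The window of *Gm12216* (chr11:53859207-53859506, minus strand) held 1 match, at positions 253 to 262 of the window, written in capitals as its reverse complement, and that of *Lyrm7* (chr11:54860548-54860847, minus strand) held 0. Both are shown 5′ to 3′ because these 2 genes fell within the span. A match of letters is not a binding site, and its absence says only that these letters are not in this window.
Gm12216: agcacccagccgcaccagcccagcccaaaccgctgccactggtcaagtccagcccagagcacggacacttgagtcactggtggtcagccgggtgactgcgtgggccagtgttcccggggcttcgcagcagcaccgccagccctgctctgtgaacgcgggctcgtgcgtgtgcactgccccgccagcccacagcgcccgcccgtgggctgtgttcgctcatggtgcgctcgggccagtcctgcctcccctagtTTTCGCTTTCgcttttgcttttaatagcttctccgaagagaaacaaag
Lyrm7: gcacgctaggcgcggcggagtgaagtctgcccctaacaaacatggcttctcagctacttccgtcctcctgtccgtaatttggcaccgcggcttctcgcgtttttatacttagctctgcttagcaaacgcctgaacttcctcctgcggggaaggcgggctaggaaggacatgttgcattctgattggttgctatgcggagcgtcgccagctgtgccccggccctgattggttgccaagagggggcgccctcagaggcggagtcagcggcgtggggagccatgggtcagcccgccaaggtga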

How the data were processed

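HSC libraries were grouped by their labels. The authors made cDNA with SMART-Seq v4 and libraries with Nextera XT, used Trim Galore! for trimming and HISAT2 for alignment (build mm39 in the submitters' processing notes), and obtained gene counts from Htseq-count. Program versions, annotation and strand setting are not given in the sources used here. The deposited values are a signal derived from counts, each gene's count divided by 1 DESeq2 size factor per library. All values (100%, tolerance 0.02) were whole multiples of the value of 1 read, so whole reads were recovered. The reads carry no molecular identifiers.

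The comparison of genotypes used limma 3.58.1 (R 4.3.3; eBayes with intensity trend, two-sided) on log2(normalized count + 1), which understates changes of low genes, with Benjamini-Hochberg adjustment over 17404 genes with a mean of at least 10. The steps were tested on simulated data. edgeR 4.0.16 (called 165 higher and 162 lower) and DESeq2 1.42.0 (295 higher and 209 lower) were run on recovered reads, beside other pseudocounts, filters, scalings, a replicate block and each library left out. Gene order came from RefSeq (GRCm38.p6, names and order only), which matched 99.9% of tested genes, and exon lengths from GENCODE vM1. Named genes were *Irf1*, the neighbours, called or partner genes of the lists, and called genes within 25 tested genes of *Irf1*; others, such as *Gm12250*, were chosen after their values were seen. The neighbours and lists were chosen with earlier results of these data known. The values of 1 other erythroid marker are not reported here. Figures were drawn with matplotlib 3.10.9.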

Additional observations from a re-analysis of the deposited data

How the results depend on the processing

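*Lyrm7* kept its call without each library in turn, with a log2 fold change between −1.40 and −1.12 and an adjusted *P* between 0.0163 and 0.0246, and in 14 of 16 alternatives in all. Without the filter on low values (adjusted *P* = 0.104) and without the intensity trend (adjusted *P* = 0.0838) it was not called, at −1.30 in both, so that 0 neighbours were called lower. The same 2 settings left 14 and 7 of all genes called higher (167 in the reported fit) and 36 and 33 called lower (166), and the cause was not tested. DESeq2 called 295 genes higher. With no threshold on the fold change 301 genes were higher and 260 lower. Without 1 library the counts were 83 to 305 higher and 105 to 265 lower, the most without WT replicate 4. Within 10 tested genes of *Irf1* on each side 5% were called, against 8% within 25. Of these 50 genes 0% were called without the filter and without the intensity trend, counts added after seeing the data, and 6% to 8% without 1 library. The direction changed for *Slc22a4* (−0.035 to 0.44 without 1 library), *Slc22a5* (0.0060 with quantile normalization, −0.089 to 0.087 without 1 library) and *Fnip1* (−0.0054 with quantile normalization, −0.015 with median centring, −0.074 to 0.13 without 1 library), none of them called. Over 39 named genes and 622 values from alternatives, 574 kept direction and side of the threshold, 35 lost the call, 2 gained it and 11 changed sign. Every scaling moved the median of all genes by less than 0.1. With the replicate number as a replicate block 219 genes were called higher and 196 lower, and of the neighbours again *Lyrm7*. The numbers were not taken to pair the samples, since nothing says that the same number marks a shared day or litter. Same-numbered libraries correlated at −0.094, 0.246 and 0.147 in their deviations from the genotype means. Such deviations balance out within each genotype, which ties these correlations to each other, so they cannot decide whether the samples are paired. *Irf1-/-* replicates 3 and 4 correlated best with the WT library of their own number, whereas *Irf1-/-* replicate 2 did so with WT replicate 4 (0.251). With 3 libraries per genotype, the intervals of *Acsl6* and *P4ha2* were wide, and the size of difference that could be detected was not tested.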

Other observations

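Within 25 tested genes of *Irf1* on each side 2 genes were called lower and 2 higher in *Irf1-/-* HSCs. Within 50 tested genes on each side 8 of 100 were called (6 lower), and within 100 on each side 14 of 200 (12 lower), compared with 37 of 1394 over chromosome 11 (2.65%) and 1.91% of all tested genes. Beyond 100 genes on each side, 11 genes of chromosome 11 were called lower and 12 higher, and the difference in direction between the regions was not tested. The called genes between 25 and 100 genes away were *Gm12250*, *Igtp*, *Irgm2*, *Tgtp1*, *Tgtp2*, *Ifi47*, *Gm12185*, *Gm5431*, *Psme2b* and *Trim58*, all lower. Except *Trim58*, they lay in 2 blocks, from −73 to −66 and from 41 to 43 in the order of tested genes counted from *Irf1*. *Gm12250*, *Igtp*, *Irgm2*, *Tgtp1*, *Tgtp2* and *Ifi47* encode interferon-inducible GTPases, and *Tgtp1* and *Tgtp2* are near-identical copies, so reads may have been split between them. *Tgtp1* had 369.9, 442 and 410.1 normalized counts in *Irf1-/-* HSCs and 3919.5, 4843 and 3719 in WT HSCs, and the groups were far apart. *Igtp* had 4085, 4657 and 3491 against 6881, 9229 and 7298, with all *Irf1-/-* libraries below the WT libraries. *Gm12250* had 76.8, 94.2 and 30.1 against 3407, 4125 and 3535, likewise without overlap. *Gm12250* had a log2 fold change of −5.91 (limma, adjusted *P* = 6.47e-08), *Tgtp1* one of −3.34 (adjusted *P* = 6.49e-09) and *Igtp* one of −0.93 (adjusted *P* = 8.94e-04). Without the filter on low values and without the intensity trend, *Igtp* (0.159 and 0.164), *Irgm2*, *Tgtp2*, *Psme2b*, *Gm5431* and *Trim58* were not called, whereas *Gm12250*, *Tgtp1*, *Gm12185* and *Ifi47* were called in all 16 alternatives. *Trim58* (log2 fold change −0.93, adjusted *P* = 0.0387) lost its call without any 1 of 4 libraries, *Irf1-/-* replicates 2 (0.0588), 3 (0.0968) and 4 (0.141) and WT replicate 3 (0.173). Leaving out *Irf1-/-* replicate 4 or WT replicate 2 brought the log2 fold change of *Irgm2* to −0.57 in both cases, short of the threshold, and *Gm5431* was not called once WT replicate 3 was left out (adjusted *P* = 0.0574). The letters GAAA, any 2 bases and GAAA again occurred in the promoter windows of *Gm12250* (2 matches), *Igtp*, *Irgm2*, *Gm12185*, *Tgtp1* and *Tgtp2* (1 each) and not in those of *Gm5431*, *Psme2b*, *Ifi47*, *Trim58*, *Gm2a* and *Sparc*. Over all 32851 windows, 3.44% held these letters. Matches in related genes, such as the near-identical *Tgtp1* and *Tgtp2*, may not be independent. A match of letters is not a binding site, and binding was not tested.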
